A study of Mus musculus with 24 samples.

Results

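Imatinib was compared with no kinase inhibitor in irradiated mouse lung. The comparison set 4 lungs that received irradiation and imatinib (2 labelled Irradiation+Imatinib and 2 labelled Irradiation+Ly+Imatinib) against 4 that received irradiation without a kinase inhibitor (2 labelled Irradiation and 2 labelled Irradiation+Ly), chosen by their titles. These are 8 of the 24 arrays of the series, and Ly entered as a term, so that each pooled value is the mean of the imatinib difference on top of Ly and the imatinib difference without it. All 8 lungs were irradiated and taken at day 24, and 4 of them, 2 on each side, also carried Ly. The other groups used here were the same pair of contrasts in unirradiated lung (Imatinib and Ly+Imatinib against ctrl and Ly) and the irradiated lungs given Su, the other kinase inhibitor of the series (Irradiation+Su and Irradiation+Ly+Su). Each of the 12 groups of the series holds 2 biological replicates. The p-values therefore measure the spread within groups, pooled over the 12 groups, and the number of arrays limits the precision of every value. The labels give no strain, age, radiation dose or drug dose, and no clock time for the drug, and Ly and Su are used here by those names alone. They also do not say whether an array holds a single mouse or a pool, and a lung here means the sample of an array. The series title asks whether blocking TGF-beta and PDGF signalling together lessens radiation-induced lung fibrosis.

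The 24 single-colour arrays lay on 6 slides of 4, and this layout bears on every result. Irradiation and Irradiation+Ly arrays shared slide 4, Irradiation+Imatinib and Irradiation+Su arrays slide 5, and Irradiation+Ly+Imatinib and Irradiation+Ly+Su arrays slide 6. Imatinib against no kinase inhibitor is therefore slides 5 and 6 against slide 4, and slide and drug cannot be told apart there. Each group lies on 1 slide, so that p-values and standard errors from the spread within groups hold no spread between slides. Imatinib against Su was measured within slides. Levels are log2 intensities minus the log2 of the array's 75th percentile, so that 0 is the level of that percentile. The 75th percentile was 2518 units of intensity on Irradiation 1 and 704 to 1768 on the other 23 arrays, and 62.0% to 78.5% of spots were well above background. The lowest median correlations with the other arrays were those of Irradiation+Ly+Imatinib 1 (r = 0.968) and Irradiation 1 (r = 0.971), and the counts below are also given without each array where that matters. The 2 replicates correlated least in Irradiation (r = 0.9795), Irradiation+Imatinib (0.9782) and Irradiation+Ly+Imatinib (0.9704), against 0.986 to 0.993 in the other groups. The lung origin of the samples shows in 28 tested markers of alveolar epithelium, whose summed level was 1100 to 1325 times the 75th percentile in imatinib lungs and 1119 to 1438 times in lungs without imatinib. Where 4 values of a gene are given, they follow the order Irradiation+Imatinib 1 and 2 and Irradiation+Ly+Imatinib 1 and 2 for imatinib lungs, and Irradiation 1 and 2 and Irradiation+Ly 1 and 2 for no-imatinib lungs.

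Imatinib blocks a small set of tyrosine kinases, among them ABL, KIT, the PDGF receptors, the CSF1 receptor and the discoidin domain receptors. In lung, PDGF drives pericytes and fibroblasts, CSF1 receptor signalling keeps macrophages alive, and KIT serves mast cells. Radiation injury of the lung brings inflammation, accumulation of lipid-laden macrophages and later deposition of collagen by fibroblasts, in which TGF-beta is a central signal.

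In irradiated lung the transcript of Cyp1a1, a xenobiotic-metabolising enzyme, had the highest imatinib difference among the genes named here, and cytosolic and endoplasmic reticulum chaperones were lower with imatinib. Transcripts of the imatinib target kinases, of collagens and of the TGF-beta pathway mostly did not pass the test. Osteopontin (Spp1) and other macrophage and inflammatory genes were lower with imatinib in lungs without Ly, and Spp1 differed between lungs with and without Ly by a test of that difference. Of 20409 genes tested, 1627 (7.97%) were higher and 1104 (5.41%) lower with imatinib at an adjusted p under 0.05 by limma with Benjamini-Hochberg adjustment, 2731 (13.4%) in all. The 4 and 4 arrays did not overlap in 1266 genes (6.2%) in the higher and 1266 (6.2%) in the lower direction.

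These counts depended on the arrays used to estimate the spread. With slide as a random block, 117 genes were higher and 11 lower, and all 128 were among the 2731. The same model without the slide called 1135 higher and 913 lower. This model had a mean for each drug in each irradiation state and a Ly term in each irradiation state, not a mean per group. It assumes a single correlation within slides. It cannot separate slide from drug, because imatinib and no-imatinib arrays share no slide. A fit on the 8 arrays alone called 43 higher and 0 lower. Of the members of the 34 gene lists, 7 in 6 lists were past the threshold with slide as a block (4 higher, 3 lower), in the 2 chaperone lists and those of AhR targets, endothelium, alveolar epithelium and erythroid cells, and none in the other lists. The median of 13 of the 34 lists changed sign without 1 of the 8 arrays. The count over all genes was 1035 without Irradiation+Imatinib 2, 1285 without Irradiation+Ly 1, 1554 without Irradiation+Ly+Imatinib 1 and 7729 without Irradiation 2. Of the 1627 higher genes, 829 were well above background on all 24 arrays, and 474 were at background on all 4 no-imatinib arrays. The filter keeps a gene that is bright in 1 group alone, so that such genes can enter through groups where they are high. In 289 of the higher genes, every array of slides 1 to 4 was at background, imatinib arrays of unirradiated lung on slides 2 and 3 included. Of the 1104 lower genes, 1071 were well above background on all 24 arrays. Each gene is given by its brightest probe. Of 46 named genes past the threshold with other tested probes, all other probes passed in the same direction in 9 and at least 1 did in 15. In 14 at least 1 other probe had the opposite sign, none of them past the threshold (Aen, Calr, Dpp7, Erbb3, Eva1c, Hsf1, Ifit3, Lamp3, Maf, Per2, Smad4, Tfam, Tmc7 and Trp53inp1).

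The gene with the smallest p, Cep20, a centrosomal protein, shows such a pattern. Cep20 had levels of -5.08, -5.28, -5.27 and -4.72 in imatinib lungs, against -7.74, -7.76, -7.62 and -7.50 in no-imatinib lungs. All 4 imatinib arrays were above background and all 4 others at it, which makes the difference at least 1.28-fold (adjusted p = 3.38e-07, limma). The 4 irradiated Su arrays on the same slides had -5.29, -5.28, -4.95 and -4.78, and the 16 arrays of slides 1 to 4 were all at background. It was 1 of 9 genes above background on all 8 arrays of slides 5 and 6 and on no other array. Cep20 also passed with slide as a block (adjusted p = 2.55e-06, limma), so that passing that model does not set drug apart from slide.

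**Figure D1:**
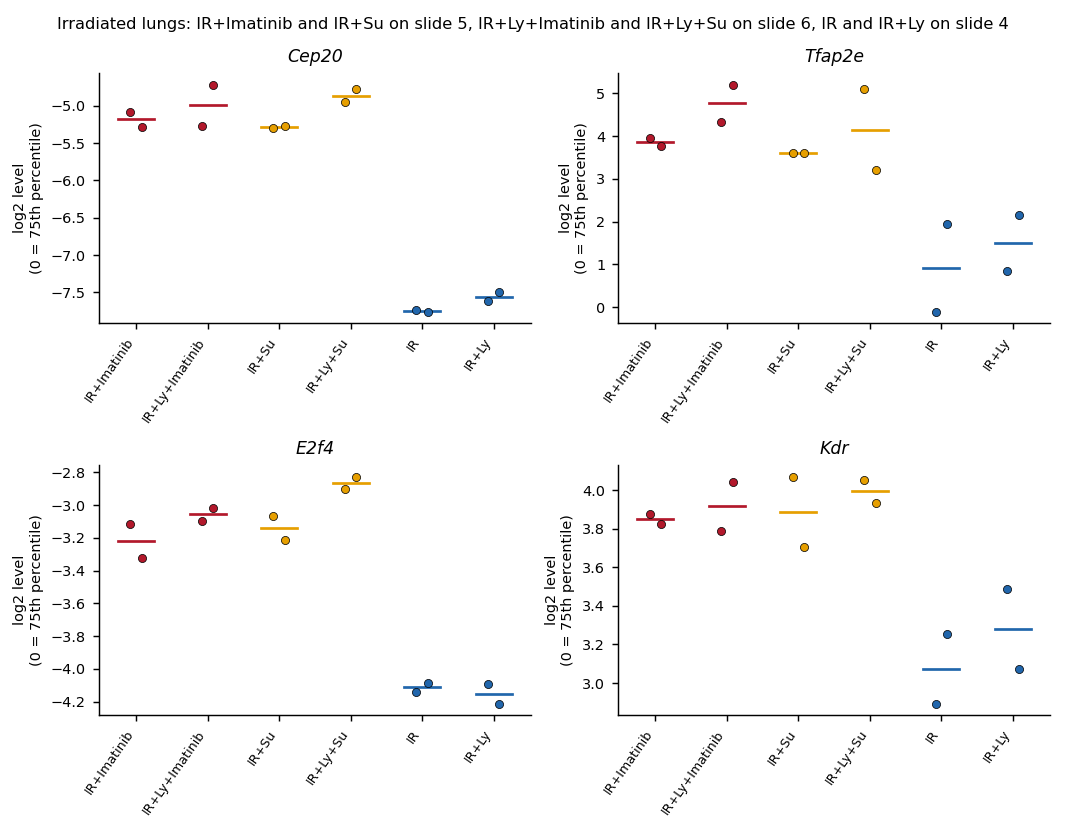
Levels (log2 intensity relative to the array's 75th percentile) of Cep20, Tfap2e, E2f4 and Kdr on each irradiated array, 1 point per array, grouped by drug with the imatinib and Su groups left of the groups without a kinase inhibitor. In each gene the 4 imatinib arrays lie above the 4 arrays without a kinase inhibitor, and the Su arrays of the same slides lie near the imatinib arrays, as in Cep20 with -5.28 to -4.72 on imatinib arrays and -5.29 to -4.78 on Su arrays.

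Cyp1a1, the classical target gene of the aryl hydrocarbon receptor (AhR), had levels of 2.53, -0.41, -1.10 and -0.48 in imatinib lungs, against -4.81, -3.84, -3.82 and -3.94 in no-imatinib lungs. All 4 imatinib lungs were above all 4 no-imatinib lungs, and Irradiation+Imatinib 1 was far above the other 3. The pooled difference was 4.24 ± 0.47 on the log2 scale (here and below ± is the standard error of the limma estimate), an 18.9-fold difference with an adjusted p of 0.000154. It held whichever of the 8 arrays was left out (adjusted p up to 0.00109) and with slide as a block (standard error 0.71, adjusted p = 0.00593). In the fit on the 8 arrays alone it had an adjusted p of 0.0925. On top of Ly the difference was 3.09 (adjusted p = 0.0207) and without Ly 5.39 (adjusted p = 0.00073), and the test of their difference did not pass (adjusted p = 0.23). Unirradiated lungs showed it as well, with 0.86, -0.06, -0.66 and -0.42 in the lungs labelled Imatinib and Ly+Imatinib, against -2.67, -3.60, -3.27 and -3.68 in those labelled ctrl and Ly, a difference of 3.24 (adjusted p = 0.00728). Of the 8 AhR target genes tested, Cyp1a1 was the only 1 past the threshold in the pooled comparison, and the median difference of the list was 0.23, against 0.03 over all genes tested. The promoter of Cyp1a1 is shown because it carries the core of the site that AhR binds, GCGTG on either strand, in capitals. The window runs from 250 bases before the start of the gene to 50 after it, here chr9:57697363-57697662 on the plus strand of GRCm38.p6, as RefSeq gives it.
Cyp1a1: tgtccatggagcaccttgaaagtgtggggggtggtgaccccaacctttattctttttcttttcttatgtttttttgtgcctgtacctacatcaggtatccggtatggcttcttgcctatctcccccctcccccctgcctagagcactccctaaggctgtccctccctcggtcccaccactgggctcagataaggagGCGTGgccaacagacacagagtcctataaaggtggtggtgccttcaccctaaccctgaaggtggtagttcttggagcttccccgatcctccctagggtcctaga
The core starts 54 bases before the start of the gene. It occurs in 32.5% of the 27025 promoters of the table and in those of 5 of the 6 AhR targets that have one there.

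**Figure D2:**
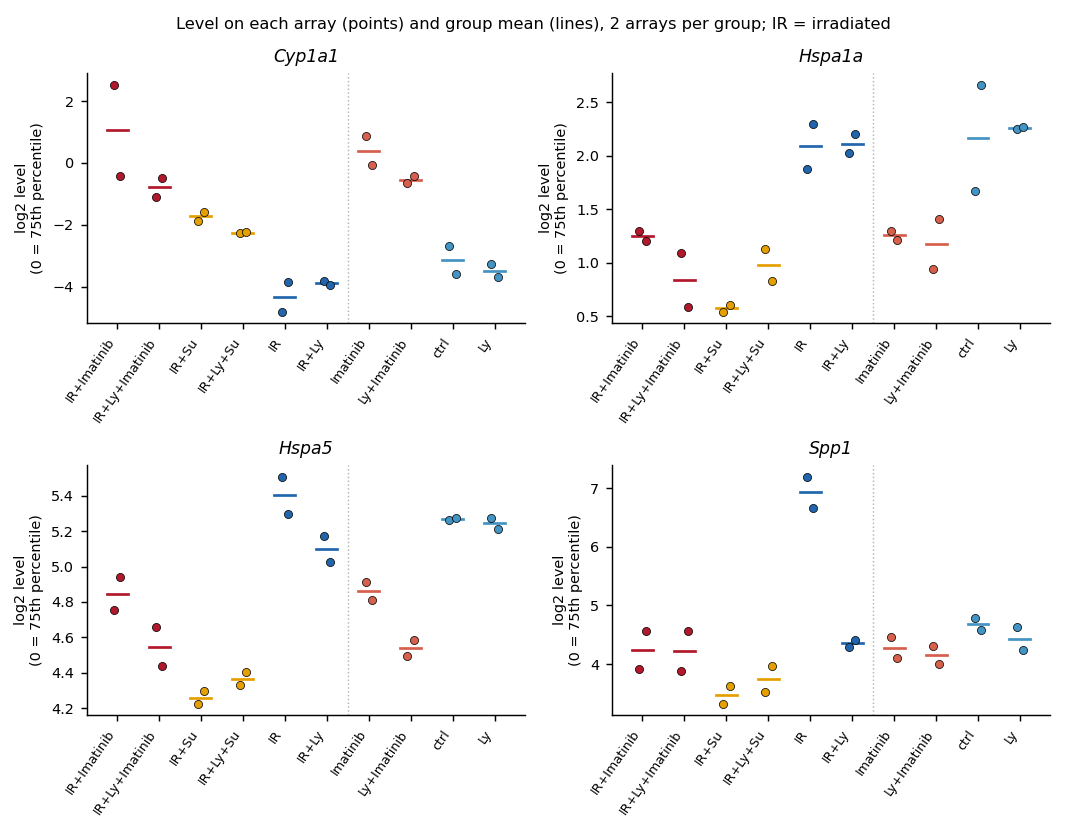
Levels (log2 intensity relative to the array's 75th percentile) of Cyp1a1, Hspa1a, Hspa5 and Spp1, 1 point per array, and lines at group means, in the irradiated (IR) groups with imatinib, with Su and without a kinase inhibitor and in the unirradiated groups with and without imatinib. Cyp1a1 was at -1.10 to 2.53 in irradiated imatinib lungs and at -4.81 to -3.82 in irradiated lungs without a kinase inhibitor, and Spp1 stood highest on the 2 Irradiation arrays (7.20 and 6.67).

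Cytosolic heat shock chaperones, which fold and refold proteins and are switched on by the transcription factor Hsf1, were lower with imatinib. Of 23 members tested, 13 were lower and 1 was higher, where 5.41% and 7.97% of all genes were; the median difference was -0.43, against 0.03 over all genes tested. The 4 and 4 arrays did not overlap in 14 lower members and 1 higher member, where they did not in 6.2% of all genes in each direction. Summed over the list, the level was 253 to 301 times the 75th percentile in imatinib lungs and 342 to 377 times in no-imatinib lungs, without overlap. Hspa1a, the inducible Hsp70, had levels of 1.29, 1.21, 1.09 and 0.58 in imatinib lungs, against 1.88, 2.30, 2.02 and 2.20 in no-imatinib lungs. Every imatinib lung was below every no-imatinib lung (-1.06 ± 0.19, adjusted p = 0.00422). Hsph1, an exchange factor for Hsp70, had 3.01, 3.12, 2.54 and 2.53 in imatinib lungs, against 3.50, 3.89, 3.75 and 3.61 in no-imatinib lungs, and the groups did not overlap (-0.89 ± 0.14, adjusted p = 0.00208). Dnaja1, an Hsp40 co-chaperone, had 2.96, 3.02, 3.19 and 2.90 in imatinib lungs, against 4.54, 3.80, 3.66 and 3.57 in no-imatinib lungs, with Irradiation 1 the highest (-0.88 ± 0.14, adjusted p = 0.00207). The 1 higher member was Hsf1 itself, by 1 of 3 probes, with 3.91, 3.64, 4.08 and 3.93 in imatinib lungs, against 2.74, 3.04, 2.88 and 3.01 in no-imatinib lungs (0.97 ± 0.16, adjusted p = 0.00216), again without overlap. That is its brightest probe alone: the other 2 gave 0.11 and -0.14 and did not pass (adjusted p = 0.607 and 0.358). All 4 of these genes stayed past the threshold whichever of the 8 arrays was left out, and the number of lower members stayed between 12 and 15. With slide as a block, 1 member was lower and Hsf1 was higher (adjusted p = 0.0298), and in the fit on the 8 arrays alone no member was past the threshold.

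The near-identical copy of Hspa1a, Hspa1b, was not tested here, and the array may not separate the pair. The promoters of Hspa1a and Hsph1, the lower members with the largest differences, are shown with heat shock element pairs in capitals (TTCNNGAA or GAANNTTC, searched on both strands). They are chr17:34972107-34972406 and chr5:149636287-149636586, both on the minus strand of GRCm38.p6 in RefSeq, and the second is the first of 2 windows that the table holds for Hsph1.
Hspa1a: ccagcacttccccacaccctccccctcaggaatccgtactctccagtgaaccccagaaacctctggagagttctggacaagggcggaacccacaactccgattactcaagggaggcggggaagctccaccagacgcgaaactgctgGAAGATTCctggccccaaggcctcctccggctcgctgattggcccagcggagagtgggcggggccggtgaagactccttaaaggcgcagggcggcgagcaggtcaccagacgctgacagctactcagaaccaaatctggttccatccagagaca
Hsph1: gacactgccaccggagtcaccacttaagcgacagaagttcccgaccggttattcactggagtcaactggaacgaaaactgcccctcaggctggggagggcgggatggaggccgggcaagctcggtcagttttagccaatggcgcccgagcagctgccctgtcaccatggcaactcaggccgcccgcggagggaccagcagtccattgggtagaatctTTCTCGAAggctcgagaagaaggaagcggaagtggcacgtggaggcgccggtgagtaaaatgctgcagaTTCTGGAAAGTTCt
Hspa1a has 1 such pair, which starts 104 bases before the start of the gene. Hsph1 has 3, at 33 bases before and at bases 37 and 42 after the start, and the last 2 overlap. The pair occurs in 15.1% of all promoters, in 9 of the 17 members tested that have a promoter in the table and in 7 of the 12 of these that were lower.

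Chaperones of the endoplasmic reticulum, which serve secreted proteins and rise in the unfolded protein response, were also lower. Of 24 members tested, 17 were lower and none was higher, where 5.41% and 7.97% of all genes were, and the median difference was -0.40. Summed over the list, the level was 179 to 222 times the 75th percentile in imatinib lungs and 229 to 326 times in no-imatinib lungs, without overlap. Hspa5, the main Hsp70 of this compartment (BiP), had levels of 4.75, 4.94, 4.66 and 4.44 in imatinib lungs, against 5.51, 5.30, 5.17 and 5.03 in no-imatinib lungs. All imatinib lungs were below all others (-0.55 ± 0.08, adjusted p = 0.00108), by as much on top of Ly (-0.55) as without it (-0.56). Creld2, a protein induced by endoplasmic reticulum stress, had 4.06, 4.13, 3.83 and 3.81 in imatinib lungs, against 4.53, 4.58, 4.50 and 4.39 in no-imatinib lungs (-0.54 ± 0.06, adjusted p = 0.000232). Manf, a secreted factor of the same response, had 2.69, 2.78, 2.66 and 2.47 in imatinib lungs, against 3.85, 3.43, 2.99 and 2.81 in no-imatinib lungs (-0.62 ± 0.10, adjusted p = 0.00237). In both genes the groups did not overlap, and in Manf the 2 Irradiation lungs were the highest. Calr, a lectin chaperone of new glycoproteins, had 3.40, 3.64, 3.47 and 3.24 in imatinib lungs, against 4.43, 3.96, 3.72 and 3.78 in no-imatinib lungs (-0.53 ± 0.13, adjusted p = 0.0219). Calr lost its call without any 1 of 5 of the 8 arrays (adjusted p up to 0.0696); the other 3 held. The number of lower members was 9 without Irradiation 1, Irradiation+Ly 1 or Irradiation+Ly+Imatinib 2, 10 without Irradiation+Imatinib 2, 11 without Irradiation+Imatinib 1 and 7 without both arrays of lowest correlation. It was 7 after quantile normalization and 1, Creld2 (adjusted p = 0.022), with slide as a block.

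The promoters of Hspa5 and Creld2, chosen for display after their values were seen, each hold 1 endoplasmic reticulum stress element, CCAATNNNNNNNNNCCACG on either strand, in capitals. They are chr2:34771840-34772139 and chr15:88819396-88819695, both on the plus strand of GRCm38.p6 in RefSeq.
Hspa5: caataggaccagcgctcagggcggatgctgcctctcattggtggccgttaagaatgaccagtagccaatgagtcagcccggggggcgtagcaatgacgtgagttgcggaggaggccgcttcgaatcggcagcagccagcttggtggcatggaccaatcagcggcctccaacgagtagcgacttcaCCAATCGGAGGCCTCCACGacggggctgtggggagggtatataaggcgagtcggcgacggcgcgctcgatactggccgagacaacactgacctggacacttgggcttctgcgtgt
Creld2: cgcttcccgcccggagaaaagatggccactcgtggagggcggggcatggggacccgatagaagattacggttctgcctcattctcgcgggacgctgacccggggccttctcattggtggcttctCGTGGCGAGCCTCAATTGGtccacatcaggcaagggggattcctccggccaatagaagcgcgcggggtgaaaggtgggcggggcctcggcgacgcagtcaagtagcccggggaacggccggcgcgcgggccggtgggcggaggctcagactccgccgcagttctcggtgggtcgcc
The element starts 65 bases before the start of Hspa5 and 126 bases before that of Creld2, where it reads on the other strand. Of all promoters in the table, 35 (0.13%) hold it, among them those of 8 of the 22 members with a promoter and of 6 of the 16 lower ones.

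**Figure D3:**
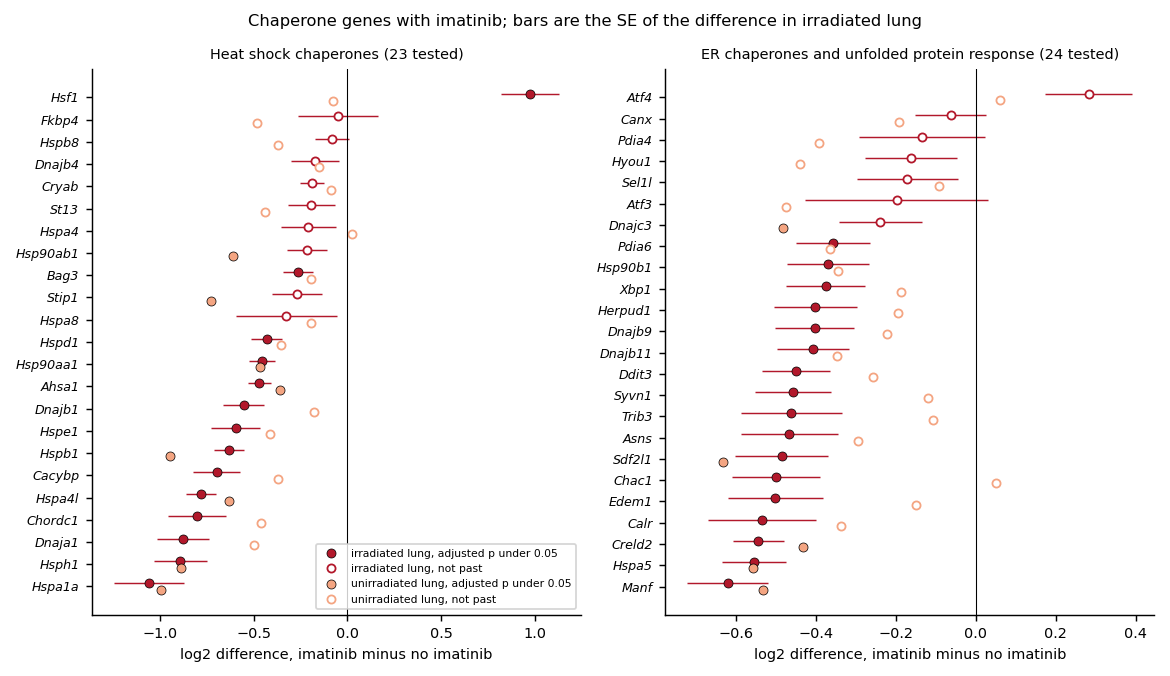
Imatinib difference (log2, with its standard error as a bar) of each member tested of the 2 chaperone lists, in irradiated and unirradiated lung, 1 line per gene, with the bar for irradiated lung and filled points past an adjusted p of 0.05. Most members lie below 0 in both, and the brightest probe of Hsf1, 1 of 3, lies above 0 in irradiated lung alone (0.97, against -0.08 in unirradiated lung).

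Transcripts of the kinases that imatinib blocks mostly did not pass the test. Of 9 tested, 1 was higher, where 7.97% of all genes were, and the median difference was 0.0091. Abl1, the cytoplasmic tyrosine kinase ABL, had levels of -0.15, -0.27, 0.07 and -0.11 in imatinib lungs, against -0.54, -0.44, -0.45 and -0.34 in no-imatinib lungs. The 4 imatinib lungs were all above the others (0.33 ± 0.07, adjusted p = 0.0104), and the call held whichever array was left out but not with slide as a block (adjusted p = 0.206). The PDGF receptors gave differences of -0.29 ± 0.19 for Pdgfra and 0.01 ± 0.10 for Pdgfrb (adjusted p = 0.307 and 0.958, limma). For Csf1r the difference was 0.05 ± 0.15 and for Kit 0.54 ± 0.22 (adjusted p = 0.832 and 0.106). Kit had 1.44, 1.60, 2.00 and 1.12 in imatinib lungs, against -0.17, 0.99, 1.63 and 1.53 in no-imatinib lungs, of which Irradiation 1 was lowest. Abl2 (0.79 ± 0.30) was at background on all no-imatinib arrays, and Ddr1 (-0.32 ± 0.11) and Ddr2 (-0.13 ± 0.13) did not pass the test. A second probe of Ddr2 gave 0.59 (adjusted p = 0.0169), opposite in sign to the brighter one.

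In a list of 12 ligands of these and other receptors, 3 were lower and none was higher, where 5.41% and 7.97% of all genes were. The median was 0.00485. Pdgfc, a ligand of the PDGF alpha receptor, had levels of -2.59, -2.01, -2.08 and -2.50 in imatinib lungs, against -1.01, -1.54, -2.37 and -1.80 in no-imatinib lungs. The groups overlapped, and the call (-0.62 ± 0.18, adjusted p = 0.0376) was lost without any 1 of 4 of the 8 arrays. Il34, the second ligand of the CSF1 receptor, and Vegfb, a ligand of a VEGF receptor, were lower by smaller amounts (-0.40 ± 0.11, adjusted p = 0.0314, and -0.30 ± 0.08, adjusted p = 0.0318), with overlap, and each call was also lost without any 1 of 4 arrays. Pdgfa, Pdgfb, Pdgfd, Kitl and Csf1 gave 0.02, 0.09, 0.40, 0.25 and -0.12, all short of the threshold by their brightest probes. Second, dimmer probes of Pdgfb and Kitl gave 0.85 and 0.65 and passed (adjusted p = 0.00104 and 0.0379). The wide error of Pdgfb (0.49) went with 2 low arrays, -2.22 on Irradiation+Ly+Imatinib 1 and -1.34 on Irradiation 1.

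Genes of macrophages and of inflammation were lower with imatinib in lungs without Ly. Of 29 genes of lipid-handling macrophages, 12 were lower and none higher in the pooled comparison (median -0.43), where 5.41% and 7.97% of all genes were. On top of Ly 1 was lower (median -0.10) and without Ly 16 were (median -0.70), where 0.808% and 4.91% of all genes were lower. Spp1, the secreted matrix protein and cytokine osteopontin, had levels of 3.91, 4.57, 3.88 and 4.57 in imatinib lungs, against 7.20, 6.67, 4.30 and 4.41 in no-imatinib lungs. The 2 Irradiation lungs stood alone at the top, and the Irradiation+Ly lungs were within the range of the imatinib lungs. The pooled difference was -1.41 ± 0.19 (adjusted p = 0.000746), and with slide as a block its standard error was 0.50 (adjusted p = 0.231, limma). It was made up of -0.13 on top of Ly (adjusted p = 0.885) and -2.70 without Ly (adjusted p = 0.000144). These differed from each other by 2.57 ± 0.38 (adjusted p = 0.00883, limma). This passed in 15 of 17 alternatives, all 8 that leave out 1 array included, but not with normexp background correction (adjusted p = 0.0733) or in the fit on the groups compared alone (adjusted p = 0.256). Mmp12, the macrophage elastase, had -3.85, -3.18, -2.67 and -2.98 in imatinib lungs, against -1.43, -1.19, -3.64 and -3.15 in no-imatinib lungs. Here too the 2 Irradiation lungs were the highest, and the difference was 0.57 on top of Ly and -2.20 without Ly (adjusted p of the dependence = 0.0442). The dependence of Mmp12 passed in 4 of 16 alternatives (adjusted p up to 0.267). Gpnmb, a glycoprotein of lipid-laden macrophages, and Trem2, their lipid receptor, were lower without Ly (-1.82 and -1.49, adjusted p = 0.0073 and 0.021), against 0.22 and 0.11 on top of Ly, but the test of the dependence did not pass (adjusted p = 0.0552 and 0.153). The lysosomal protease Ctsd had 5.20, 5.72, 5.45 and 5.10 in imatinib lungs, against 6.54, 6.43, 5.32 and 5.98 in no-imatinib lungs (-0.70 ± 0.14, adjusted p = 0.00733) and held whichever array was left out. Fabp4, a fatty acid binding protein of macrophages and fat, had 1.90, 1.59, 1.19 and 1.83 in imatinib lungs, against 3.77, 2.68, 1.81 and 2.15 in no-imatinib lungs (-0.97 ± 0.23, adjusted p = 0.0167).

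Inflammatory cytokines and chemokines were also lower with imatinib in part. Of 31 members, 7 were lower pooled (median -0.46), none on top of Ly (median 0.08) and 13 without Ly (median -1.53), where 5.41%, 0.808% and 4.91% of all genes were; the dependence of the list on Ly was not tested. Saa3, a serum amyloid A protein made in inflamed lung, had levels of -1.31, -0.73, -0.31 and -1.06 in imatinib lungs, against 4.04, 1.86, -0.70 and 1.66 in no-imatinib lungs. Irradiation 1 was far above the rest, and Irradiation+Ly 1 lay among the imatinib lungs (-2.57 ± 0.56, adjusted p = 0.012); the call held whichever array was left out. Orm2, an acute-phase protein, had -4.51, -3.42, -3.33 and -3.70 in imatinib lungs, against -0.66, -1.97, -4.04 and -3.50 in no-imatinib lungs. Its difference was 0.26 on top of Ly and -2.65 without Ly, and the dependence passed (adjusted p = 0.047). It passed in 5 of 16 alternatives (adjusted p up to 0.448). Saa1, another serum amyloid A, and Ccl12, a chemokine for monocytes, were lower pooled (-1.24 ± 0.34, adjusted p = 0.0321, and -1.17 ± 0.33, adjusted p = 0.0342), with overlap, and lost their calls without any 1 of 6 and of 5 arrays. The counts of lower members in both lists moved with single arrays. Lipid-handling genes numbered 7 without Irradiation 1, 5 without Irradiation+Ly 2, 4 without Irradiation+Imatinib 1, 5 without Irradiation+Imatinib 2, 8 without Irradiation+Ly+Imatinib 1 and 4 without Irradiation+Ly+Imatinib 2. Inflammatory genes numbered 1 without Irradiation 1, Irradiation+Ly 2, Irradiation+Imatinib 1 or Irradiation+Ly+Imatinib 2, and 11 without Irradiation 2. With slide as a block neither list had a member past the threshold.

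**Figure D4:**
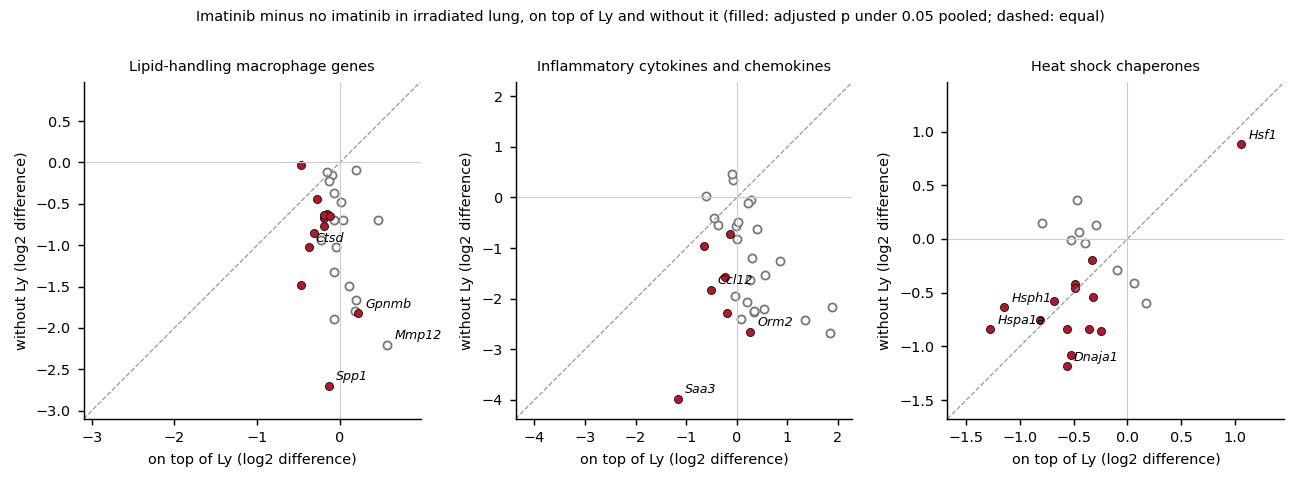
Imatinib difference (log2) in irradiated lung on top of Ly (horizontal axis) and without Ly (vertical axis), 1 point per tested gene of the lipid-handling macrophage, inflammatory and heat shock lists, filled where the pooled difference passed. The macrophage and inflammatory genes spread downwards along the vertical axis (medians of -0.70 and -1.53 without Ly), around 0 on the horizontal axis (medians of -0.10 and 0.08 on top of Ly), and heat shock genes have similar medians on both (-0.47 on top of Ly and -0.46 without Ly).

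General markers of macrophages and monocytes moved both ways. Of 29 tested, 2 were higher and 2 lower, where 7.97% and 5.41% of all genes were, with a median of -0.39. Their summed level was 532 to 675 times the 75th percentile in imatinib lungs and 571 to 709 times in no-imatinib lungs. In bulk lung, fewer macrophages and less RNA of these genes per macrophage cannot be told apart. The transcription factor Maf was higher, with 1.43, 1.49, 1.91 and 2.29 in imatinib lungs, against -0.12, 0.58, 0.25 and 0.72 in no-imatinib lungs (1.42 ± 0.24, adjusted p = 0.00332), and so was the fractalkine receptor Cx3cr1, with -0.80, -0.60, -0.03 and -0.25 in imatinib lungs, against -2.25, -1.32, -1.54 and -0.86 in no-imatinib lungs (1.07 ± 0.23, adjusted p = 0.0117). Both were without overlap and held whichever array was left out, but not with slide as a block (adjusted p = 0.0641 and 0.186). Of 4 probes of Maf only this one passed, and the others gave 0.48, 0.51 and -0.31 (adjusted p = 0.0992, 0.203 and 0.136). Marco, a scavenger receptor of alveolar macrophages, and Lgals3, the lectin galectin-3, were lower (-1.08 ± 0.31, adjusted p = 0.0374, and -0.48 ± 0.12, adjusted p = 0.0246), with overlap, and lost their calls without any 1 of 5 arrays. Of 19 genes of alternative macrophage activation, 3 were lower (median -0.49). The lectin receptor Clec10a had -0.18, -0.09, -0.33 and 0.11 in imatinib lungs, against 1.28, 0.86, 0.18 and 0.17 in no-imatinib lungs (-0.75 ± 0.14, adjusted p = 0.00578), without overlap; the related Mgl2 (-0.92 ± 0.27, adjusted p = 0.0384) and the chemokine Ccl24 (-0.92 ± 0.28, adjusted p = 0.0464) overlapped and lost their calls without any 1 of 6 arrays.

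Few genes of collagens and of the TGF-beta pathway, the fibrosis side of the design, passed the test at this day. Of 37 genes of fibrillar collagens and matrix, 1 was higher and 2 were lower, where 7.97% and 5.41% of all genes were. The median difference was 0.04, with 0.21 on top of Ly and -0.24 without Ly, and ranged from -0.23 to 0.22 as single arrays were left out. Col1a1, a chain of the main fibrillar collagen, had levels of 3.99, 5.18, 5.29 and 4.08 in imatinib lungs, against 5.16, 4.41, 4.38 and 4.31 in no-imatinib lungs. The groups overlapped over nearly their whole range (0.08 ± 0.27, adjusted p = 0.867). Col3a1 gave -0.14 ± 0.26, fibronectin (Fn1) 0.12 ± 0.26 and smooth muscle actin (Acta2) -0.03 ± 0.17, and none passed (adjusted p = 0.736, 0.761 and 0.922). Their sign changed with the array left out or with the scaling, so that no direction is given. The prolyl hydroxylases P4ha1 and P4ha2, which modify collagen in the endoplasmic reticulum, were lower without overlap (-0.30 ± 0.08, adjusted p = 0.0264, and -0.44 ± 0.13, adjusted p = 0.0399), and the basement membrane collagen Col15a1 was higher (0.60 ± 0.14, adjusted p = 0.0169). The calls of P4ha1 and P4ha2 were lost without any 1 of 6 arrays and that of Col15a1 without any 1 of 3.

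Of 24 TGF-beta ligands, receptors and activators, 2 were higher and 1 was lower (median -0.02), where 7.97% and 5.41% of all genes were. Tgfb2, a ligand, had levels of 0.73, 1.09, 1.26 and 1.11 in imatinib lungs, against 0.47, 0.69, 0.70 and 0.72 in no-imatinib lungs. The 4 imatinib lungs were above the others by a small margin (0.40 ± 0.10, adjusted p = 0.0171), and the call was lost without either of 2 arrays. The signal carriers Smad3 (0.29 ± 0.09, adjusted p = 0.0481) and Smad4 (-0.23 ± 0.07, adjusted p = 0.0373) moved in opposite directions and lost their calls without any 1 of 7 and of 6 arrays. Another probe of Smad3 gave 1.01 (adjusted p = 0.00676), and that of Smad4 gave 0.28 without passing. Tgfb1 (0.15), Tgfbr1 (-0.12) and Tgfbr2 (-0.09) did not pass. Of 31 TGF-beta response genes, none was higher and 3 were lower (median -0.14), against the same shares of all genes. Edn1, the vasoconstrictor endothelin-1, had 0.83, 0.81, -0.02 and 0.38 in imatinib lungs, against 0.77, 1.12, 1.30 and 1.53 in no-imatinib lungs (-0.68 ± 0.14, adjusted p = 0.00926). Its difference was -1.24 on top of Ly (adjusted p = 0.00398) and -0.12 without Ly, but the test of the dependence on Ly did not pass. Fst, which binds activin, and Id2, an inhibitor of basic helix-loop-helix factors, were also lower (-0.74 ± 0.18, adjusted p = 0.0205, and -0.32 ± 0.09, adjusted p = 0.0307), each losing the call without any 1 of 4 arrays.

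Of 27 endothelial markers tested, 4 were higher, where 7.97% of all genes were, and none was lower (median 0.19, and 0.04 without Irradiation 1). With slide as a block 1 was higher. Kdr, the VEGF receptor of endothelial cells, had levels of 3.88, 3.82, 3.79 and 4.04 in imatinib lungs, against 2.89, 3.25, 3.49 and 3.07 in no-imatinib lungs. All imatinib lungs were above all others (0.71 ± 0.11, adjusted p = 0.00237), also with slide as a block (adjusted p = 0.0396). Aplnr, the apelin receptor, had 0.58, 1.08, 1.46 and 1.29 in imatinib lungs, against -0.73, 0.05, 0.41 and -0.34 in no-imatinib lungs (1.25 ± 0.22, adjusted p = 0.00353), without overlap, and both held whichever array was left out. Flt4 and Pecam1, a lymphatic VEGF receptor and an adhesion molecule of endothelium, were higher with overlap (0.69 ± 0.16, adjusted p = 0.0171, and 0.54 ± 0.17, adjusted p = 0.047). Irradiation 1 was the lowest array for both, and the count of higher markers was 2 without Irradiation 1, Irradiation+Imatinib 2 or Irradiation+Ly+Imatinib 1 and 13 without Irradiation 2. The summed level of endothelial markers was 401 to 450 in imatinib lungs and 302 to 469 in no-imatinib lungs.

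Markers of other cells passed the test in a few members each, where 7.97% of all genes were higher and 5.41% lower. The shares for B cells, proliferation, smooth muscle and fibroblasts were near or below these. Of 24 B cell markers, 2 were higher (median 0.33). Pax5, the B lineage factor, had -1.60, -2.44, -2.33 and -1.65 in imatinib lungs, against -3.73, -3.83, -1.90 and -2.10 in no-imatinib lungs (0.89 ± 0.22, adjusted p = 0.0223). Its difference was 0.01 on top of Ly and 1.76 without Ly, but the test of the dependence on Ly did not pass. Irradiation lungs were lowest, and the calls of Pax5 and of the B cell factor Ebf1 (0.43 ± 0.13, adjusted p = 0.0455) were lost without any 1 of 3 and of 6 arrays. Of 33 proliferation genes, 2 were higher (median 0.38), Top2a with 0.98 ± 0.23, adjusted p = 0.0154 and the replication helicase subunit Mcm2 with 0.55 ± 0.16, adjusted p = 0.0344. Their count was 18 without Irradiation 1 and 11 without both arrays of lowest correlation, but 0 without Irradiation+Ly 1, Irradiation+Imatinib 2 or Irradiation+Ly+Imatinib 1. Without Irradiation 2 there were 2 higher and 5 lower, with a median of 0.009. Of 28 alveolar epithelial markers, 3 were lower, led by the keratin Krt18, with 5.15, 5.11, 4.76 and 4.88 in imatinib lungs, against 5.80, 5.42, 5.30 and 5.43 in no-imatinib lungs (-0.51 ± 0.08, adjusted p = 0.00275), which did not overlap and held with slide as a block (adjusted p = 0.0478). The others were Epcam (-0.43 ± 0.12, adjusted p = 0.0383) and Lamp3 (-0.31 ± 0.09, adjusted p = 0.0388), whose calls were lost without any 1 of 4 and of 6 arrays. In pericytes and smooth muscle, 2 of 24 were higher and 1 was lower: the smooth muscle actin Actg2 was higher (0.73 ± 0.17, adjusted p = 0.0145), without overlap, and the tropomyosin Tpm2 lower (-0.66 ± 0.17, adjusted p = 0.0239), with Irradiation+Ly+Imatinib 1 the lowest at 1.73. In fibroblasts 1 of 21 was higher, the ligand Wnt5a (0.86 ± 0.22, adjusted p = 0.0254), which lost its call without any 1 of 5 arrays.

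No marker passed among 8 of mast cells, 16 of neutrophils (median -0.48), 32 of T and NK cells (-0.11) or 4 of thymus (0.16). The median of mast cell markers was -0.84, but 0.04 without Irradiation 1, 0.004 without Irradiation+Ly+Imatinib 1 and 0.47 without both; without Irradiation 2, 2 were higher and 4 lower. Those of T and NK cells ranged from -0.24 to 0.02 as single arrays were left out. Over all genes 7.97% were higher and 5.41% lower. In airway epithelium 1 of 30 was lower, the dynein subunit Dynlrb2 (-0.39 ± 0.12, adjusted p = 0.0449). Fat, muscle, mesothelium and blood can be carried along when lung is taken. Of 12 adipose genes 3 were lower, among them the lipid droplet protein Cidec (-0.43 ± 0.12, adjusted p = 0.0357), and of 20 genes of cardiac and skeletal muscle Acta1 was higher (0.62 ± 0.17, adjusted p = 0.032) and Tnni2 lower (-0.44 ± 0.10, adjusted p = 0.0137). The mesothelial gene Lrrn4 (0.58 ± 0.16, adjusted p = 0.029), 1 of 14 tested, and Car1, the carbonic anhydrase of red cells and 1 of 13 tested, were higher. Car1 had -2.14, -2.27, -2.28 and -2.04 in imatinib lungs, against -3.42, -3.00, -2.67 and -3.10 in no-imatinib lungs, without overlap (0.86 ± 0.13, adjusted p = 0.00161), also with slide as a block (adjusted p = 0.0468). Of 2 sex-linked genes tested, Xist was higher by a small amount (0.33 ± 0.09, adjusted p = 0.0268).

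**Figure D5:**
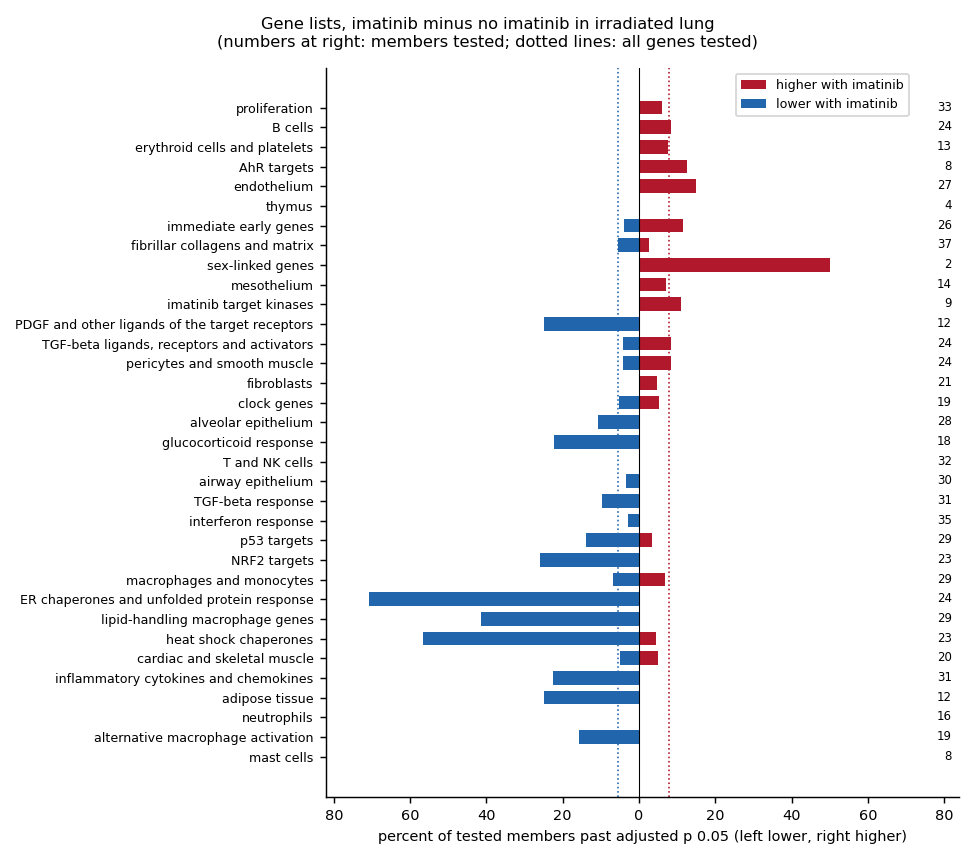
Percent of tested members of each of the 34 gene lists that were higher (to the right) and lower (to the left) with imatinib in irradiated lung, with dotted lines at the shares of all genes tested (7.97% higher and 5.41% lower). The chaperone lists of the cytosol (13 of 23 lower) and of the endoplasmic reticulum (17 of 24 lower) have the highest shares of lower members, followed by lipid-handling macrophage genes (12 of 29).

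Stress and signalling responses other than the chaperones moved less. Of 23 NRF2 targets, which answer oxidative stress, 6 were lower (median -0.32), where 5.41% of all genes were, and none with slide as a block. Among the 6 were the pentose phosphate enzyme G6pdx (-0.59 ± 0.19, adjusted p = 0.0496), the peroxiredoxin Prdx1 (-0.40 ± 0.12, adjusted p = 0.0473), its reducing enzyme Srxn1 (-0.42 ± 0.12, adjusted p = 0.0412) and the glutathione transferase Gstp1 (-0.39 ± 0.10, adjusted p = 0.0203). Their number was 0 without Irradiation+Ly 1, Irradiation+Imatinib 2 or Irradiation+Ly+Imatinib 1. Of 29 p53 targets, 4 were lower and 1 was higher (median -0.25). Ccng1, a cyclin induced by p53, had -0.24, 0.20, -0.53 and -0.16 in imatinib lungs, against 1.57, 0.53, -0.02 and 0.27 in no-imatinib lungs (-0.77 ± 0.18, adjusted p = 0.0173), with Irradiation 1 the highest. Aen (-0.45 ± 0.13, adjusted p = 0.0331) and Trp53inp1 (-0.39 ± 0.12, adjusted p = 0.0491) were lower and the ribonucleotide reductase Rrm2b higher (0.55 ± 0.16, adjusted p = 0.0343), while Cdkn1a, the p53-induced cell cycle inhibitor, did not pass (-0.50 ± 0.25, adjusted p = 0.175). Without Irradiation 2, 13 p53 targets were lower, and without Irradiation+Ly+Imatinib 1 none was. Of 35 interferon genes 1 was lower, Ifit3 (-0.42 ± 0.11, adjusted p = 0.0284).

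Of 18 glucocorticoid response genes, 4 were lower (median -0.10), where 5.41% of all genes were, and none with slide as a block. The metallothioneins Mt1 and Mt2, which bind zinc, had 2.24, 2.50, 2.28 and 2.13 in imatinib lungs, against 3.37, 3.03, 2.38 and 2.53 in no-imatinib lungs for Mt1 (-0.54 ± 0.11, adjusted p = 0.00892), and 2.10, 2.78, 2.27 and 2.34 in imatinib lungs, against 4.44, 3.43, 2.59 and 2.40 in no-imatinib lungs for Mt2 (-0.84 ± 0.19, adjusted p = 0.0136). In both, Irradiation lungs were highest and the Irradiation+Ly lungs close to the imatinib lungs. The calls held whichever array was left out, but not with slide as a block (adjusted p = 0.221 and 0.326). Tsc22d3, a glucocorticoid-induced leucine zipper protein, was lower without overlap (-0.79 ± 0.18, adjusted p = 0.014), and Pdk4, which restrains pyruvate use, with overlap (-0.63 ± 0.16, adjusted p = 0.0246). Of 26 immediate early and ERK feedback genes, 3 were higher and 1 was lower, where 7.97% and 5.41% of all genes were. The feedback inhibitors Spry4 (1.59 ± 0.37, adjusted p = 0.0155) and Spred2 (0.41 ± 0.09, adjusted p = 0.0158) and the flow-induced factor Klf2 (0.44 ± 0.10, adjusted p = 0.0138) were higher without overlap, and Egr2 was lower with overlap (-0.67 ± 0.21, adjusted p = 0.0471). Of 19 clock genes, Npas2 was higher (1.29 ± 0.29, adjusted p = 0.0149), at background on all no-imatinib arrays, and Per2 lower (-0.74 ± 0.23, adjusted p = 0.047). Per2 differed by -1.47 on top of Ly (adjusted p = 0.0234) and 0.00 without Ly. On top of Ly 5 clock genes were lower, where 0.808% of all genes were, among them Dbp (-1.88, adjusted p = 0.0403), which did not pass pooled. The test of the dependence on Ly passed for neither Per2 nor Dbp.

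Outside the lists, genes well above background on every array and higher with imatinib included several transcription factors. Tfap2e, an AP-2 transcription factor, had levels of 3.95, 3.78, 4.34 and 5.21 in imatinib lungs, against -0.11, 1.94, 0.84 and 2.15 in no-imatinib lungs (3.11 ± 0.47, adjusted p = 0.00148). Foxq1, a forkhead factor, had -0.06, -0.15, 0.76 and 1.52 in imatinib lungs, against -3.20, -1.15, -1.50 and -0.67 in no-imatinib lungs (2.15 ± 0.39, adjusted p = 0.00466), and Irradiation 1 was the lowest array in both. The homeobox gene Irx3 had -2.66, -2.54, -2.40 and -2.29 in imatinib lungs, against -4.24, -3.41, -4.31 and -3.92 in no-imatinib lungs (1.50 ± 0.18, adjusted p = 0.000374), and the protease inhibitor Spint2 had -1.29, -1.38, -1.62 and -1.37 in imatinib lungs, against -2.26, -3.03, -3.27 and -3.27 in no-imatinib lungs (1.54 ± 0.16, adjusted p = 0.000107). E2f4, which represses cell cycle genes, had -3.11, -3.32, -3.10 and -3.02 in imatinib lungs, against -4.14, -4.08, -4.09 and -4.21 in no-imatinib lungs (1.00 ± 0.09, adjusted p = 2.63e-05), and the RNA binding protein Pcbp1 0.10, -0.28, 0.22 and 0.16 in imatinib lungs, against -0.77, -1.25, -1.29 and -1.49 in no-imatinib lungs (1.25 ± 0.13, adjusted p = 0.000107). In all 6 genes the groups did not overlap and the calls held whichever array was left out; with slide as a block 5 of them passed, at adjusted p of 0.0137 for Tfap2e, 0.00771 for Irx3, 0.00865 for Spint2, 0.000354 for E2f4 and 0.00323 for Pcbp1, and Foxq1 did not (0.0639). The irradiated Su arrays of the same slides lay at like levels, with -3.06, -3.21, -2.90 and -2.83 for E2f4 and -2.64, -2.59, -2.35 and -2.24 for Irx3. The mitochondrial transcription factor Tfam was higher by its brightest probe (1.99 ± 0.41, adjusted p = 0.00931), but its other 2 probes gave -0.06 and 0.08 and did not pass.

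Other genes with high differences were at background without imatinib, so that only a lower bound of the fold can be given. The filter asks for both arrays of at least 1 group, so such genes can enter the test through groups where they are high. Their adjusted p-values set those groups against values at the limit of detection and are not support apart from the filter. Smg8, a factor of nonsense-mediated decay, had levels of -5.06, -3.35, -4.61 and -4.59 in imatinib lungs, against -6.28, -7.74, -7.63 and -7.16 in no-imatinib lungs, at least 2.06-fold higher (adjusted p = 0.000428). The complement protease C1s2 was at least 2.75-fold higher (adjusted p = 0.000562), and Cyp2j11, a cytochrome P450, at least 1.29-fold (adjusted p = 8.53e-05). Tnfsf12, the cytokine TWEAK, and Hacl1, a peroxisomal lyase, were above background on 2 and 3 of the 4 imatinib arrays and on none of the no-imatinib arrays, at least 1.56-fold and 1.29-fold higher (adjusted p = 6.33e-07 and 2.42e-05). On the Su arrays of the same slides Smg8 had -4.91, -4.85, -4.49 and -4.73 and Tnfsf12 -4.78, -4.88, -4.29 and -3.94. Prl3b1, a placental hormone gene, stood at -1.13 on Irradiation+Ly+Imatinib 1, against -4.78 to -4.30 on the other 3 imatinib arrays and -5.12, -6.16, -6.24 and -5.84 on the no-imatinib arrays (2.11 ± 0.49, adjusted p = 0.0158).

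Further genes outside the lists that were lower with no overlap, chosen after their values were seen, included the following. Dok7, known as the activator of the muscle kinase MuSK, had levels of -1.72, -1.87, -2.23 and -1.82 in imatinib lungs, against 0.16, -0.53, -1.02 and -1.18 in no-imatinib lungs, without overlap (-1.27 ± 0.14, adjusted p = 0.000136), and held whichever array was left out and with slide as a block (adjusted p = 0.022). Sphk1, which makes sphingosine 1-phosphate, had 3.06, 2.46, 2.05 and 2.56 in imatinib lungs, against 3.87, 3.41, 3.44 and 3.44 in no-imatinib lungs (-1.01 ± 0.16, adjusted p = 0.00188; adjusted p = 0.024 with slide as a block). The stress kinase Map3k6 had 1.84, 1.27, 0.97 and 0.95 in imatinib lungs, against 2.52, 2.46, 2.50 and 1.99 in no-imatinib lungs (-1.11 ± 0.18, adjusted p = 0.0021). Fam107a, an actin-associated protein, had -1.39, -2.12, -1.19 and -2.08 in imatinib lungs, against -0.01, -0.21, -0.65 and -0.84 in no-imatinib lungs (-1.27 ± 0.21, adjusted p = 0.00303), and the membrane protein Tmc7 fell as well (-1.03 ± 0.20, adjusted p = 0.00644). All 5 genes were without overlap and held whichever array was left out, but a second probe of Tmc7 gave 0.04 and one of Sphk1 -0.49, neither past the threshold (adjusted p = 0.93 and 0.087). Cd163l1, a scavenger receptor, had -0.47, -0.09, -1.77 and 0.50 in imatinib lungs, against 1.45, 0.89, 1.86 and 1.88 in no-imatinib lungs (-1.98 ± 0.48, adjusted p = 0.0197) and lost its call without any 1 of 3 arrays. In the peptidase Dpp7, the receptor Erbb3, and Eva1c and Wdfy2, a single array was far below the others, Irradiation+Ly+Imatinib 1 with -0.88, -0.43, 0.29 and -0.73, against 1.67 to 1.82, 1.70 to 2.07, 1.82 to 2.01 and 0.67 to 0.84 on the other 3 imatinib arrays. Their calls (adjusted p = 0.0417, 0.0332, 0.0152 and 0.0403) were each lost without at least 1 array. They belong to single probes: all 4 other probes of Erbb3 were positive (0.36 to 0.91), a second of Eva1c gave 0.80 and of Dpp7 0.06, one more of Eva1c -0.35 and one of Wdfy2 -0.31, none past the threshold.

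Whether the imatinib difference depends on Ly was tested gene by gene. On top of Ly 517 genes (2.53%) were higher and 165 (0.808%) lower, 682 (3.34%) in all, and without Ly 1708 (8.37%) were higher and 1002 (4.91%) lower. In both, 166 genes were higher (32.1% of those on top of Ly and 9.72% of those without) and 29 lower (17.6% and 2.89%); the comparisons share no array, but all 4 no-imatinib arrays lie on 1 slide. The difference between them passed in 197 genes (0.965%), 119 (0.583%) with the higher value on top of Ly and 78 (0.382%) with the lower one. Imatinib arrays without Ly lie on slide 5 and those on top of Ly on slide 6, so that slide and Ly cannot be told apart in this dependence. Spp1, Mmp12 and Orm2, given above, were among the 119, and Tpm2 was among the 78, with -1.44 on top of Ly and 0.12 without Ly (adjusted p = 0.0454). Tpm2 passed the test of the dependence in 4 of 17 alternatives. The lowest p belonged to Itga10, an integrin chain, and Spertl, which were highest on the 2 Irradiation+Imatinib arrays and at background on all 4 no-imatinib arrays, so that the size of the difference is not measured. Itga10 had -3.56, -3.65, -6.22 and -5.95 in imatinib lungs, against -6.38, -5.96, -6.0 and -5.57 in no-imatinib lungs, and Spertl -3.88, -4.38, -7.83 and -9.08 in imatinib lungs, against -7.69, -7.69, -7.53 and -7.41 in no-imatinib lungs. In Slc17a2, a transporter, and Otog, an inner ear protein, Irradiation+Ly+Imatinib lungs were highest, with -3.23 and -3.09 for Slc17a2, against -4.68 and -4.78, -4.03 and -4.24 and -4.27 and -4.18 in Irradiation+Imatinib, Irradiation and Irradiation+Ly lungs. The Irradiation+Ly+Su lungs, on the same slide, had -3.00 and -3.15. Otog had -3.43 and -3.38 in Irradiation+Ly+Imatinib lungs, against -4.54 and -4.57, -4.36 and -4.33 and -4.41 and -4.58 in the same other groups. The number of genes without Ly was 282 without Irradiation 1 and 9021 without Irradiation 2, and that of the dependence was 80 and 6328 in those fits. On top of Ly it was 209 without Irradiation+Ly 1, 236 without Irradiation+Ly+Imatinib 1 and 305 without Irradiation+Ly 2.

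In unirradiated lung the same contrast gave fewer calls. There 86 genes (0.421%) were higher and 73 (0.358%) lower with imatinib, 159 in all (0.779%), also with each side on its own slides. Of the 159, 67 were called in the same direction in irradiated lung (42.1% of the unirradiated and 2.45% of the irradiated calls), 42 higher and 25 lower, and 10 in the opposite direction; these 2 comparisons share no array. Chaperones were part of it: 8 of 23 heat shock members were lower (median -0.41) and 5 of 24 of the endoplasmic reticulum (median -0.32). Hspa1a had 1.30, 1.21, 0.94 and 1.41 in lungs labelled Imatinib and Ly+Imatinib, against 1.67, 2.66, 2.25 and 2.27 in those labelled ctrl and Ly (-1.0 ± 0.19, adjusted p = 0.0263). Hspa5 had 4.91, 4.81, 4.49 and 4.58 in imatinib lungs, against 5.26, 5.28, 5.28 and 5.21 without imatinib (-0.56 ± 0.08, adjusted p = 0.00728). For both, the test of a dependence on irradiation did not pass, with differences between the contrasts of -0.06 and 0.00. Fam107a (-1.43), Map3k6 (-1.23) and the natriuretic peptide clearance receptor Npr3 (-1.41) were also lower (adjusted p = 0.00728, 0.00728 and 0.0162), and Pax5 was higher (1.41, adjusted p = 0.0106). With slide as a block no gene passed in unirradiated lung (limma; 922 had an unadjusted p under 0.05), and the count without the block was 19 without Ly+Imatinib 1, 70 without Imatinib 2 and 80 without Imatinib 1.

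The dependence on irradiation itself passed in 213 genes (1.04%), 202 (0.99%) with a higher difference in irradiated lung and 11 (0.0539%) with a lower one. The brightest probe of Hsf1, 1 of 3, was among the 202: its imatinib difference was 0.97 in irradiated and -0.08 in unirradiated lung (adjusted p = 0.034). So were Tfap2e (3.11 and -0.09), Irx3 (1.50 and -0.18), E2f4 (1.00 and -0.04) and Pcbp1 (1.25 and -0.02), each with the value of irradiated lung first (adjusted p = 0.0319, 0.00743, 0.00122 and 0.00487). Slc45a1, a sugar transporter, had opposite differences of 1.37 in irradiated and -1.42 in unirradiated lung (adjusted p = 0.000226). Since each side of each contrast lies on its own slides, slide and irradiation cannot be told apart in these differences. E2f4 passed in all 27 alternatives, Irx3 and Pcbp1 in 26, Tfap2e in 16 and Hsf1 in 11; with slide as a block E2f4 alone of these 5 passed (adjusted p = 0.0312). The count was 12 with slide as a block, 4302 without Irradiation 2 and 98 without Ly+Imatinib 2.

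Imatinib and Su could be compared on shared slides, which neither can with no inhibitor. Of 20409 genes, 7 (0.0343%) were higher with imatinib than with Su and none was lower (1839 had an unadjusted p under 0.05), and the count was 0 with slide as a block (limma; 1720 at an unadjusted p under 0.05). It was 487 without Irradiation+Ly+Imatinib 2, 205 without Irradiation+Imatinib 1 and 0 without Irradiation+Ly+Su 2. Among genes well above background on all 24 arrays the count was 0 (limma; 1442 had an unadjusted p under 0.05). Itga10 and Spertl, described above, were 2 of the 7, chosen for mention after their values were seen. The filter admits a gene that is bright in 1 group alone, so that such genes can enter through the side where they are high. Cyp1a1 had 2.53, -0.41, -1.10 and -0.48 in imatinib lungs and -1.87, -1.57, -2.27 and -2.22 in Su lungs, all 4 above all 4, a difference of 2.12 (95% interval 1.12 to 3.12) with an adjusted p of 0.261. Hspa1a gave 0.27 (95% interval -0.14 to 0.67) and Hspa5 0.38 (0.21 to 0.55); neither passed (adjusted p = 0.722 and 0.211). Spp1 gave 0.62 (0.21 to 1.03) and Col1a1 0.85 (0.27 to 1.44), and neither passed after adjustment (adjusted p = 0.349 and 0.367). No member of the matrix list passed between the drugs (median 0.51). The differences of imatinib and of Su from no kinase inhibitor share their 4 control arrays, and are given side by side: -0.55 and -0.94 for Hspa5, 4.24 and 2.12 for Cyp1a1, 0.71 and 0.77 for Kdr and -1.41 and -2.04 for Spp1, imatinib first. Of the 1627 higher genes 1608, and of the 1104 lower 1102, had a Su difference of the same sign. Su medians were -0.57 for heat shock, -0.51 for endoplasmic reticulum, -0.60 for lipid-handling and -0.78 for inflammatory genes. Not every list had the imatinib sign with Su, as with 0.15 for neutrophils and 0.06 for adipose tissue.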

How the data were processed

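RNA of whole mouse lung was measured on 24 single-colour Agilent arrays, 2 for each of 12 groups taken from the sample titles; 1 Irradiation+Su sample carries another replicate number in its source name, and the title was used. Per the file headers, the authors' intensity values came from Agilent Feature Extraction 9.1.3.1, which subtracted background, removed the spatial trend and gave dim spots a surrogate value; arrays were not scaled to each other. Once a constant was removed, the values in the deposited series matrix were 0.992 to 1.008 times those of the array files.

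Each array held 43379 spots that were not controls. Spots of a probe were averaged, 619 of 41174 probes marked as outliers were dropped, and 40555 remained. Probes were named through RefSeq by accession (22550), symbol (6572) or synonym (3068); 8365 kept the name in the file. The brightest probe stood for each of 27401 genes. Values are log2 intensity minus the log2 of the array's 75th percentile. The 20409 genes well above background on both arrays of at least 1 group were fitted in R 4.3.3 by limma 3.58.1, after reading with data.table version 1.17.8, with 1 mean per group over all 24 arrays (12 residual and 2.08 prior degrees of freedom), two-sided, adjusted by Benjamini-Hochberg, with 0.05 as the threshold. A bound ("at least") sets the mean of the bright group against the higher of the lowest signal marked well above background and the dim gene's own signal on each array. On simulated data for the pooled comparison with 20409 genes, 72% of 100 genes changed by 1 and 91% of 100 changed by 2 on the log2 scale were recovered, with 8 false calls. The simulated noise was independent between arrays and held no slide effect, so that these rates do not cover differences between slides.

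The members and the 34 gene lists were chosen with earlier results of these data known. The text names genes from the 15 highest and 15 lowest of the pooled comparison among those past the threshold with no overlap, the 6 highest and lowest or 10 smallest p of the others, up to 4 members of each list and 28 genes named throughout; it gives a part of these, chosen after their values were seen, as were Spint2 and Irx3. Alternatives were quantile normalization, normexp with an offset of 50, other filters on dim probes, every probe, the deposited series matrix, the compared groups alone, slide as a random block (consensus correlation 0.247), the replicate number as a block and each array left out; for normexp, 32 spots on 11 arrays with a local background far above their signal took the array's median background. Alternatives added after seeing the data were the slide model without the slide and the fit without both arrays of lowest correlation. No depth can be given for arrays.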

Additional observations from a re-analysis of the deposited data

Results flagged for a closer look

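Results listed here are those in which the imatinib difference passed a test of a difference between lungs with and without Ly, or between irradiated and unirradiated lung (limma, adjusted p under 0.05), among the 131 genes named. The causes of these differences were not tested, and the imatinib and no-imatinib groups in them lie on different slides. Imatinib arrays with and without Ly also lie on different slides, as do irradiated and unirradiated arrays.

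Between lungs with and without Ly, 8 genes differed. The imatinib difference on top of Ly minus that without Ly was 2.57 for Spp1, 2.78 for Mmp12 and 2.91 for Orm2, in which both Irradiation lungs were higher than the other 6 of the 8 lungs compared. It was 1.66 for Slc17a2 and 1.30 for Otog, which were highest, among the 12 irradiated arrays, on the 4 of slide 6, Su arrays included. It was -2.86 for Itga10 and -4.54 for Spertl, highest on the 2 Irradiation+Imatinib arrays, and -1.55 for Tpm2, lowest on Irradiation+Ly+Imatinib 1. Itga10 and Spertl were at background on all 4 no-imatinib arrays, and Spertl on both Irradiation+Ly+Imatinib arrays, so that the sizes given for them depend on values at the limit of detection. The test passed in 15 of 17 alternatives for Spp1, 4 of 16 for Mmp12, 5 of 16 for Orm2 and 4 of 17 for Tpm2, and in 14 of 16 for each of the other 4.

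Between irradiated and unirradiated lung, 19 genes differed, all with the higher difference in irradiated lung. Irradiated minus unirradiated, the value was 1.05 for the brightest of 3 probes of Hsf1 (past the threshold in 11 of 27 alternatives), 3.21 for Tfap2e, 1.68 for Irx3, 1.03 for E2f4, 1.27 for Pcbp1, 1.24 for Spint2 and 1.09 for Galr3, all well above background on 24 arrays. For genes at background on many arrays, whose differences depend on values at the limit of detection, it was 2.79 for Cep20, 2.79 for Tnfsf12, 2.89 for Smg8, 1.98 for C1s2, 1.74 for Cyp2j11, 1.99 for Hacl1, 1.62 for Itga10, 1.49 for Spertl and 2.80 for Slc45a1. It was 1.17 for the mesothelial gene Lrrn4, 0.61 for Slc17a2 and 0.71 for Otog.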

How the results depend on the processing

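None of the 106 called genes named in the text changed direction under any alternative run. Only quantile normalization, normexp, the deposited series matrix and leaving out arrays could have changed it. The other alternatives leave the pooled value of the brightest probe as it was. Dimmer probes were not followed, and in 14 of 46 genes at least 1 had the opposite sign. Of the 106, 46 stayed past the threshold whichever of the 8 arrays was left out. Calls were kept by 60 after quantile normalization, 77 with normexp, 18 with slide as a block (14 higher, 4 lower), 57 without both arrays of lowest correlation and 5 in the fit on the compared groups alone. Counts of genes past the threshold moved as follows, each in the order pooled (2731), without Ly (2710), on top of Ly (682), dependence on Ly (197), unirradiated lung (159), dependence on irradiation (213) and imatinib minus Su (7), where a count moved by over 1.5 times. Quantile normalization gave 986 (482 higher, 504 lower) pooled, 1022 without Ly, 428 on top of Ly, 96 for irradiation and 4 against Su. Normexp gave 1171 (628 higher, 543 lower) pooled, 171 on top of Ly, 0 for the dependence on Ly, 83 (18 higher, 65 lower) in unirradiated lung and 0 against Su. With no filter on dim probes there were 1766 pooled, 1614 without Ly, 113 for the dependence on Ly and 95 in unirradiated lung, and with every probe tested 4463 without Ly. Genes well above background on all 24 arrays gave 309 on top of Ly, 3 for the dependence on Ly, 113 for irradiation, 0 against Su and a pooled split of 909 higher and 1169 lower. The compared groups alone gave 43 pooled, 0 without Ly, 0 on top of Ly, 0 for the dependence on Ly, 5 in unirradiated lung, 63 for irradiation and 0 against Su. Slide as a block gave 128 pooled, 0 in unirradiated lung, 12 for irradiation and 0 against Su; that model estimates no value with and without Ly apart, and without the slide it gave 88 in unirradiated lung and 0 against Su. Without both arrays of lowest correlation there were 1294 pooled, 336 without Ly, 54 for the dependence on Ly and 13 (8 higher, 5 lower) against Su. Leaving out 1 array gave 1035 to 7729 pooled, 282 to 9021 without Ly, 209 to 875 on top of Ly, 47 to 6328 for the dependence on Ly, 19 to 179 in unirradiated lung, 98 to 4302 for irradiation and 0 to 487 against Su. Samples that share a replicate number did not deviate together (median r = 0.0346 over 66 pairs of groups, 20 of them over 0.1), so that the numbers were not taken to pair the arrays. The replicate number as a block gave 3029, 3389, 701, 198, 182, 218 and 6, and the deposited series matrix gave counts within 1.5 times of all 7. Each limma fit with a count of 0 had 922 to 3737 genes at an unadjusted p under 0.05. Genes short of the threshold turned sign as follows. After quantile normalization the pooled value was 0.029 for Ddr2, 0.125 for Tgfbr2, 0.051 for Col3a1, 0.17 for Acta2 and -0.19 for Slc17a2. Without both arrays of lowest correlation it was -0.019 for Csf1r, 0.071 for Ddr2, -0.055 for Pdgfa, -0.070 for Tgfb1, 0.002 for Tgfbr2 and -0.039 for Col1a1. Leaving out 1 array gave pooled values from -0.33 to 0.072 for Ddr2, -0.056 to 0.093 for Pdgfa, -0.66 to 0.84 for Pdgfb, -0.028 to 0.33 for Tgfb1, -0.30 to 0.049 for Tgfbr1, -0.22 to 0.047 for Tgfbr2, -0.45 to 0.18 for Col3a1, -0.23 to 0.17 for Acta2, -0.094 to 0.11 for Pdgfrb, -0.23 to 0.38 for Col1a1, -0.15 to 0.40 for Fn1 and -0.093 to 0.20 for Csf1r. The cause of these changes was not tested. For genes not well above background, the signal sets only a bound on the difference.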
